A study of Mus musculus with 16 samples.

Results

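The mitochondrial genome of the mouse encodes 13 messenger RNAs and 22 transfer RNAs beside 2 ribosomal RNAs, and the results below describe the 35 messenger and transfer RNAs in the proximal jejunum, the upper part of the middle small intestine. They were chosen by symbol, as every gene whose name begins with mt-, without mt-Rnr1 and mt-Rnr2, and all 35 were found among the 37620 genes in the files. The 16 libraries came from CBA/J mice, an inbred strain, all male and aged 8 weeks. They formed 4 groups of 4 libraries. The groups were mice on the methionine-supplemented diet (300%) after 8.5 Gy of gamma radiation, mice on that diet without irradiation (0 Gy), mice on the methionine-adequate diet after 8.5 Gy, and unirradiated mice on the adequate diet. The design text names a period of 6 days that may be that of the diet or that after irradiation. The labels do not tie a library to an animal, so p-values measure the spread between libraries, and a bulk tissue sample cannot tell fewer cells of a type from less RNA per cell.

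Both strands of the circular mitochondrial genome are transcribed into long precursors, and transfer RNAs lie between most messenger RNAs, where nucleases cut them out and so release their neighbours. The messenger RNAs encode membrane subunits of the respiratory chain and of the ATP synthase, which is completed with subunits from nuclear genes. Transfer RNAs carry amino acids to the mitochondrial ribosome, and the methionine transfer RNA serves both for starting a protein, after a formyl group has been added, and for inserting methionine within it. In the intestine, absorptive cells spend ATP from respiration on nutrient uptake, and stem cells of the crypt respire more than the neighbouring Paneth cells, the defence cells of the crypt base. Of the members, mt-Nd6 and 8 transfer RNAs are annotated on the minus strand of the genome and the other 12 messenger RNAs and 14 transfer RNAs on the plus strand.

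The genes of 9 transfer RNAs are shown 5′ to 3′ as DNA from the GENCODE M21 transcripts (build GRCm38), with the anticodon that a stem search located in capitals, because 8 of them were called with radiation on at least 1 diet (mt-Te, also called, is not shown) and mt-Tm carries the amino acid that was supplemented. The length in the files equalled that of the reference transcript for all 35 members.
mt-Tv: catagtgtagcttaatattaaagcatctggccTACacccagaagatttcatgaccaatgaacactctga
mt-Tg: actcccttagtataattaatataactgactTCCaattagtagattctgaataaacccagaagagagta
mt-Ta: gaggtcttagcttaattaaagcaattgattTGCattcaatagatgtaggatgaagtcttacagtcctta
mt-Tw: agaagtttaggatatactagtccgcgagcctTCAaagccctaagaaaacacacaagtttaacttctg
mt-Ty: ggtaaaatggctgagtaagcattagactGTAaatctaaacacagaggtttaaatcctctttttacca
mt-Tp: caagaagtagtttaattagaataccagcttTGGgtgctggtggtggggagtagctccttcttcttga
mt-Tt: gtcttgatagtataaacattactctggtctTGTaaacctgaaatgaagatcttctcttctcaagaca
mt-Ti: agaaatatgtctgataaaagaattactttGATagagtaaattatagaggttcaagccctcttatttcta
mt-Tm: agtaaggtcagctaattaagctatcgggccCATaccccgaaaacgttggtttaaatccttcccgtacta
These RNAs carry valine (mt-Tv), glycine (mt-Tg), alanine (mt-Ta), tryptophan (mt-Tw), tyrosine (mt-Ty), proline (mt-Tp), threonine (mt-Tt), isoleucine (mt-Ti) and methionine (mt-Tm). The genes for tryptophan, alanine, asparagine, cysteine and tyrosine form a cluster between mt-Nd2 and mt-Co1, with mt-Tw on the plus strand and the others on the minus strand. The CAT anticodon of mt-Tm reads ATG and, in mitochondria, ATA, and the messengers hold between 3 such codons in mt-Atp8 and 38 in mt-Nd5.

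Library depth was 2.57 to 15.51 M counts (M, mega), and 3 libraries lay under 4 M, namely irradiated supplemented replicate 1, irradiated adequate replicate 2 and unirradiated adequate replicate 1. The mean read length, taken from the lengths in the files, was 46.6, 45.7 and 45 bases in these 3 and 46.1 to 48.4 bases in the other libraries. Among unirradiated libraries it was 47.6 to 48 bases on the supplemented and 45 to 47.5 bases on the adequate diet, without overlap. The 2 mitochondrial ribosomal RNAs held 1.28 to 2.87% of counts on the supplemented diet and 3.63 to 6.85% on the adequate diet, without overlap at either dose. Small nucleolar RNAs held 7.18 to 14.1% of counts in irradiated libraries and 2.93 to 5.05% in unirradiated ones. Among cell type markers, 7 of 7 tested Paneth cell genes rose with radiation on each diet, and the list's other gene, Defa21, had 0 counts in all libraries. Their summed level was 10424 to 16182 CPM (counts per mega-count, after scaling) in irradiated against 3556 to 6168 CPM in unirradiated libraries on the supplemented diet, and 8107 to 12823 against 2777 to 3916 CPM on the adequate diet. All 5 red blood cell genes fell on both diets, with sums of 3.59 to 28.0 CPM in irradiated against 120 to 393 CPM in unirradiated libraries on the supplemented diet, and 3.28 to 8.66 against 365 to 591 CPM on the adequate diet. Of 5 tested B and plasma cell genes, 3 fell on the supplemented diet and 5 on the adequate diet. In the same order of diets, 2 and 2 of 6 crypt stem and cycling genes, 3 and 2 of 7 goblet, 4 and 3 of 6 enteroendocrine, 2 and 1 of 6 fibroblast, 1 and 1 of 6 macrophage and 5 and 1 of 6 exocrine pancreas genes rose, and none of 10 absorptive enterocyte genes was called. Smooth muscle had 1 and 1 of 8 genes lower, skeletal muscle 0 and 1 of 2, and T cells 2 lower on the supplemented diet against 2 higher and 2 lower of 8 on the adequate diet. Both ileal enterocyte genes, Fabp6 and Slc10a2, stayed under the filter in this jejunal tissue. Of all tested genes, radiation called 8.03% higher and 7.21% lower on the supplemented diet, and 7.13% and 6.58% on the adequate diet. Counts of 1 or 2 genes of a marker list are no result about that cell type. The part of such shifts in the results below was not tested.

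Levels within the messenger class spanned a wide range when CPM were divided by annotated length. Averaged over the 16 libraries, mt-Co2 and mt-Co1, the electron-accepting and the catalytic core subunits of cytochrome c oxidase (complex IV), stood highest at 6346 and 5593 CPM per kb, followed by mt-Co3, another core subunit, at 4270 CPM per kb. The ATP synthase subunits mt-Atp8 and mt-Atp6 followed at 2566 and 2347 CPM per kb. Complex I subunits lay between 1304 CPM per kb for mt-Nd1 and 227 CPM per kb for mt-Nd4l, and mt-Cytb, the only mitochondrially encoded subunit of complex III, was at 1154 CPM per kb. The pairs mt-Nd5 and mt-Nd4 (861 and 854 CPM per kb) and mt-Nd6 and mt-Nd2 (397 and 395 CPM per kb) sat closer together than their spread over libraries. Counts of mt-Co1, mt-Co2, mt-Atp8 and mt-Atp6 were not whole numbers in any of the 16 libraries, so reads were split between them and other genes. The mt-Atp8 and mt-Atp6 genes overlap, and the split between them is uncertain. The mt-Nd4l and mt-Nd4 genes also overlap, and counts of mt-Nd4l were not whole in 11 libraries, while those of mt-Nd4 were whole in every library.

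Radiation raised nearly all mitochondrial messenger RNAs on both diets. The edgeR quasi-likelihood test with Benjamini-Hochberg adjustment over 16558 genes called 11 of 13 higher and 0 lower on the supplemented diet, where 8.03% of all tested genes were called higher and 7.21% lower. On the adequate diet it called 12 of 13 higher and 0 lower, against 7.13% higher and 6.58% lower of all tested genes. All 13 had every irradiated library above every unirradiated one on both diets, while 9.43% of all genes did so in that direction and 9.23% in the other on the supplemented diet, and 9.34% and 10.1% on the adequate diet. The median log2 fold change of the 13 was 1.08 on the supplemented and 1.23 on the adequate diet, beside medians of 0.01 over all tested genes on each diet.

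**Figure D1:**
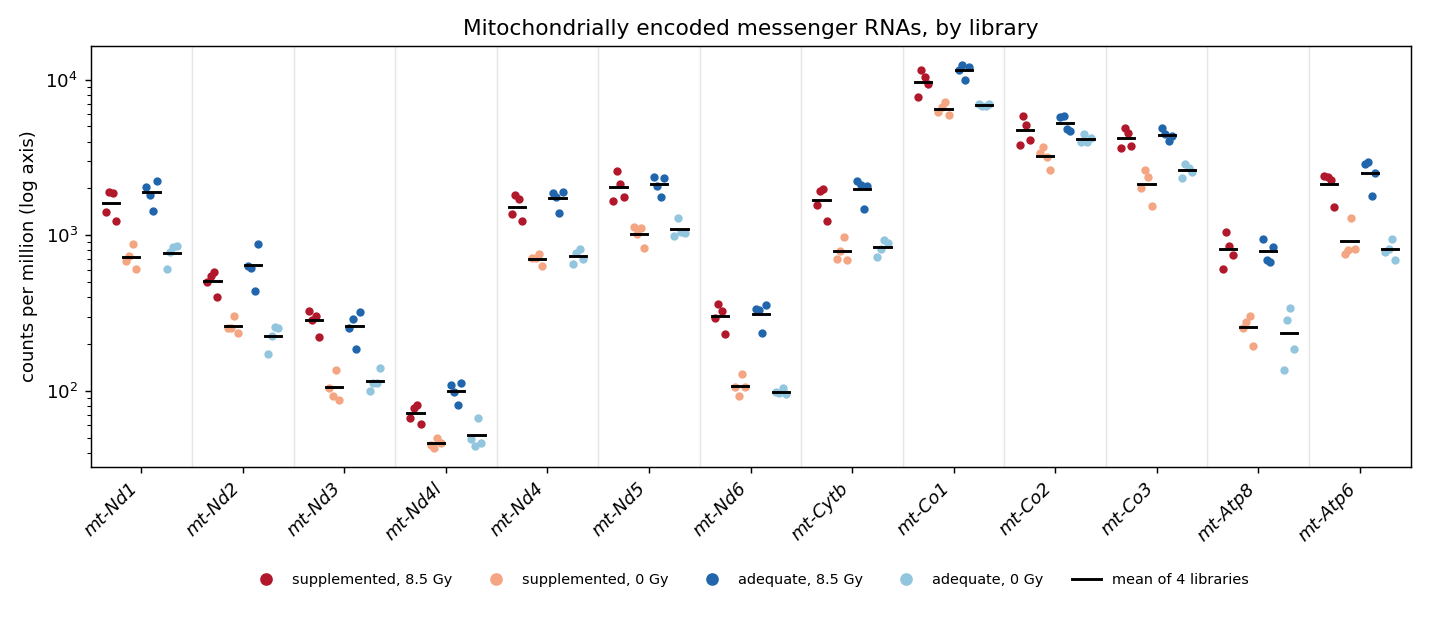
CPM of the 13 mitochondrial messenger RNAs in each library on a log axis, ordered by complex, with points for libraries and black lines for means of 4. Irradiated libraries sit above the unirradiated libraries of the same diet for every gene. On this axis the narrowest gap is at mt-Co2 on both diets, followed by mt-Co1 on the supplemented and mt-Nd4l on the adequate diet.

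The smallest p-values of the messenger class belonged to mt-Nd6, a complex I subunit and the messenger of the minus strand. Irradiated libraries of the supplemented diet had 293, 361, 325 and 234 CPM of mt-Nd6, against 105, 93.4, 128 and 106 CPM in the unirradiated ones. In the adequate diet groups it was at 335, 332, 234 and 355 CPM with irradiation, against 98.9, 96.7, 104 and 95.4 CPM without. The lowest irradiated library stood well above the highest unirradiated library on each diet. The log2 fold change was 1.48 ± 0.16 (SE, adjusted p = 3.03e-05, edgeR) on the supplemented diet and 1.67 ± 0.16 (adjusted p = 1.03e-05) on the adequate diet, n = 4 per group.

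All 7 complex I messengers rose on both diets, with log2 fold changes between 0.64 and 1.48 on the supplemented diet and between 0.96 and 1.67 on the adequate diet. The proton-pumping subunits mt-Nd2, mt-Nd4 and mt-Nd5 had 0.95 ± 0.20, 1.11 ± 0.17 and 0.99 ± 0.19 on the supplemented diet, and 1.5 ± 0.20, 1.24 ± 0.17 and 0.97 ± 0.19 on the adequate diet. Their neighbours in the membrane arm, mt-Nd1, mt-Nd3 and mt-Nd4l, had 1.14 ± 0.21, 1.43 ± 0.19 and 0.64 ± 0.14 on the supplemented diet, and 1.3 ± 0.21, 1.17 ± 0.19 and 0.96 ± 0.15 on the adequate diet. The supplemented diet call of mt-Nd4l, the lowest of the class per length, was lost at 0.44 when libraries were scaled by total counts alone. The complex III messenger mt-Cytb, cytochrome b, averaged 1678 CPM in irradiated and 794 CPM in unirradiated libraries of the supplemented diet, and 1968 and 842 CPM on the adequate diet, with log2 fold changes of 1.08 ± 0.20 (adjusted p = 0.00197) and 1.23 ± 0.20 (adjusted p = 0.00097).

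Both ATP synthase messengers rose on both diets, and mt-Atp8, an accessory membrane subunit, had the largest fold change of the class on each. For mt-Atp8, the supplemented diet libraries stood at 603, 1046, 854 and 751 CPM with irradiation, against 254, 277, 301 and 193 CPM without. Adequate diet libraries had 948, 690, 674 and 839 CPM with irradiation, against 137, 284, 341 and 186 CPM without. Groups did not overlap on either diet, and the log2 fold change was 1.67 ± 0.26 (adjusted p = 0.000567) on the supplemented and 1.73 ± 0.26 (adjusted p = 0.000552) on the adequate diet. Its overlapping neighbour mt-Atp6, the subunit that forms the proton channel, had 1.22 ± 0.23 and 1.64 ± 0.23 in the same order of diets.

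The complex IV messengers are the highest of the class in level per length, and on the adequate diet their fold changes were the smallest of the 13. The catalytic subunit gene mt-Co1, which has the highest mean CPM of the class, was at 7687, 11445, 10352 and 9370 CPM in irradiated supplemented libraries, against 6175, 6667, 7127 and 5882 CPM in unirradiated ones. On adequate diet it was at 11589, 12395, 9955 and 12077 CPM with irradiation, against 6992, 6801, 6811 and 6926 CPM without. All irradiated libraries lay above the unirradiated ones, by a narrow margin at supplemented replicate 1, the shallow library of its group. The log2 fold change was 0.59 ± 0.20 (adjusted p = 0.0579, not called) on the supplemented diet, where it reached 0.69 (called) without that library or without the 3 shallow libraries, and 0.60 (called) without irradiated supplemented replicate 4. DESeq2 (log2 0.58) and limma voom (0.54) called it as well. On the adequate diet the value was 0.74 ± 0.20 (adjusted p = 0.0219), and the call was lost with total counts alone, without the 3 shallow libraries, and without irradiated replicate 1 or unirradiated replicate 2 or 3, at log2 fold changes between 0.57 and 0.81 over all alternatives.

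The other complex IV genes differed from each other. For mt-Co3 the log2 fold change was 0.98 ± 0.20 (adjusted p = 0.00423) on the supplemented diet and 0.76 ± 0.20 (adjusted p = 0.0198) on the adequate diet, where the call was lost with total counts alone, without the 3 shallow libraries, and without irradiated replicate 1 or unirradiated replicate 1. The electron-accepting subunit gene mt-Co2 averaged 4716 ± 925 CPM in irradiated and 3208 ± 442 CPM in unirradiated libraries on the supplemented diet (SD, n = 4 each), and 5278 ± 612 and 4158 ± 256 CPM on the adequate diet. Its log2 fold changes of 0.56 ± 0.20 (adjusted p = 0.0702) and 0.34 ± 0.20 (adjusted p = 0.27) were not called, although its groups did not overlap. On the supplemented diet DESeq2 called it at 0.55, and so did the edgeR test without irradiated supplemented replicate 1 (0.65) or replicate 4 (0.62). Counts of mt-Atp6 per 100 counts of mt-Co2, its neighbour beyond mt-Tk and mt-Atp8, were 46.2 ± 11.3 with irradiation and 29.1 ± 8.83 without on the supplemented diet, and 47.7 ± 7.10 and 19.6 ± 3.17 on the adequate diet. These ratios overlapped between doses on the supplemented diet and were apart on the adequate diet.

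The share of all counts held by the 13 messengers was 2.80 ± 0.501% in irradiated and 1.82 ± 0.176% in unirradiated libraries of the supplemented diet, and 3.12 ± 0.472% and 1.95 ± 0.123% on the adequate diet (SD, n = 4 per group). The 8 irradiated libraries ranged from 2.27 to 3.63% and the 8 unirradiated ones from 1.58 to 2.06%, with no overlap. Within the class, mt-Nd6 counts per 100 counts of the 12 plus-strand messengers were 1.04 ± 0.105 with irradiation and 0.655 ± 0.0951 without on the supplemented diet. They were 0.939 ± 0.0816 and 0.534 ± 0.0307 on the adequate diet, and again all irradiated libraries lay above all unirradiated ones (lowest irradiated 0.836, highest unirradiated 0.750). The strand setting of the counting is not given in the sources used here, so reads of the opposite strand over mt-Nd6 cannot be told apart from its own.

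**Figure D2:**
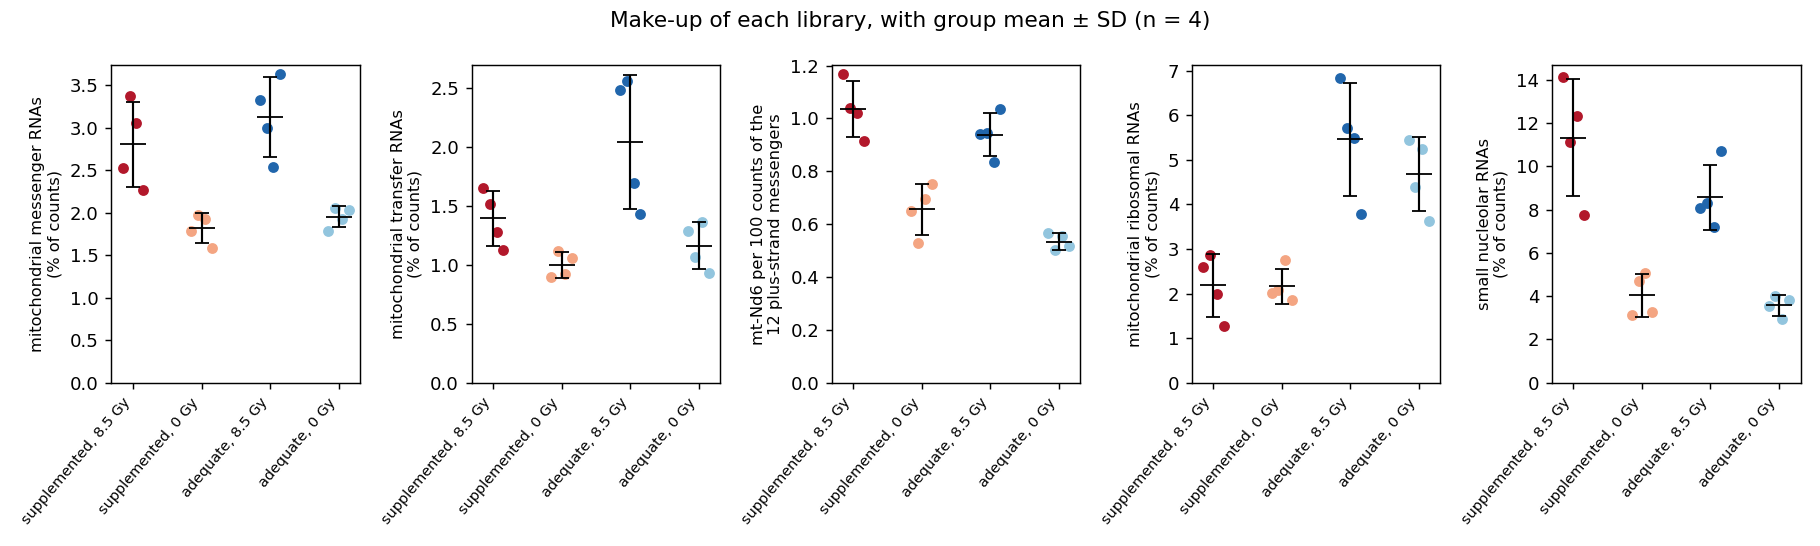
Shares of counts per library for mitochondrial messenger, transfer and ribosomal RNAs and small nucleolar RNAs, and mt-Nd6 counts per 100 plus-strand messenger counts, with group means and SD bars. Messenger shares are 2.27 to 3.63% in irradiated and 1.58 to 2.06% in unirradiated libraries, while ribosomal shares differ by diet.

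Of the 22 transfer RNAs, 20 passed the filter on low counts. The exceptions were mt-Td for aspartate, with 60 counts over all libraries and 0 in 2 of them, and mt-Tr for arginine, with 55 counts and 0 in 4. In mt-Td the groups held 21 counts in irradiated and 6 in unirradiated libraries of the supplemented diet, and 24 and 9 on the adequate diet. In mt-Tr they held 17 and 5, and 30 and 3. A count of 0 allows up to 0.193 CPM in the deepest library and 1.17 CPM in the shallowest (3 counts, counting error only). Per length, mt-Tv stood far above the other transfer RNAs at 107225 CPM per kb, before mt-Tg at 34290 and the histidine transfer RNA mt-Th at 23759 CPM per kb. The lowest of the tested ones were mt-Ty and the phenylalanine transfer RNA mt-Tf at 33.6 and 28.6 CPM per kb. Transfer RNA genes of 59 to 75 bases are hardly longer than the reads, and base modifications can stop reverse transcription, so these counts follow what the library protocol captures.

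In mt-Tv, a transfer RNA that in human also serves as a structural part of the mitochondrial ribosome, the supplemented diet libraries had 10687, 9508, 8484 and 6767 CPM with irradiation, against 3228, 5195, 4787 and 4331 CPM without. Adequate diet libraries had 14891, 18241, 9332 and 8109 CPM with irradiation, against 2679, 4126, 4792 and 3221 CPM without. Each irradiated library was above each unirradiated library of its diet. The log2 fold change was 1.02 ± 0.29 (adjusted p = 0.0273) on the supplemented and 1.77 ± 0.30 (adjusted p = 0.00113) on the adequate diet. The supplemented diet call was lost in 5 leave-one-out fits, those without irradiated supplemented replicate 1, 2 or 3 or unirradiated supplemented replicate 1 or 4, with values of 0.89 to 1.12 over all 16 such fits. Within the class, mt-Tv held 60.1 ± 5.25% of transfer RNA counts with irradiation and 47.5 ± 6.58% without on the supplemented diet, and 56.2 ± 5.05% and 34 ± 8.81% on the adequate diet.

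Transfer RNAs did not move as a block with radiation. On the supplemented diet 4 of 20 tested were called higher (mt-Ty, mt-Ta, mt-Tw, mt-Tv) and 2 lower (mt-Tt, mt-Ti), and on the adequate diet 7 were called higher (mt-Ta, mt-Ty, mt-Tw, mt-Tg, mt-Tv, mt-Tp, mt-Te) and 0 lower. All genes were called higher at 8.03% and lower at 7.21% on the supplemented diet and at 7.13% and 6.58% on the adequate diet, so 2 of 20 lower is near the background share. Irradiated and unirradiated libraries did not overlap for 2 higher and 2 lower members on the supplemented diet and for 7 higher and 0 lower on the adequate diet. Of all tested genes, 9.43% were apart in the higher and 9.23% in the lower direction on the supplemented diet. On the adequate diet these shares were 9.34% and 10.1%. The supplemented diet counts of non-overlap are thus near the background share in both directions. The median log2 fold change of the 20 was 0.06 on the supplemented and 0.75 on the adequate diet. The supplemented diet count depended on single libraries: it was 2 without irradiated supplemented replicate 1 or 2, 3 without unirradiated supplemented replicate 2 or 4, and 2 without the 3 shallow libraries.

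**Figure D3:**
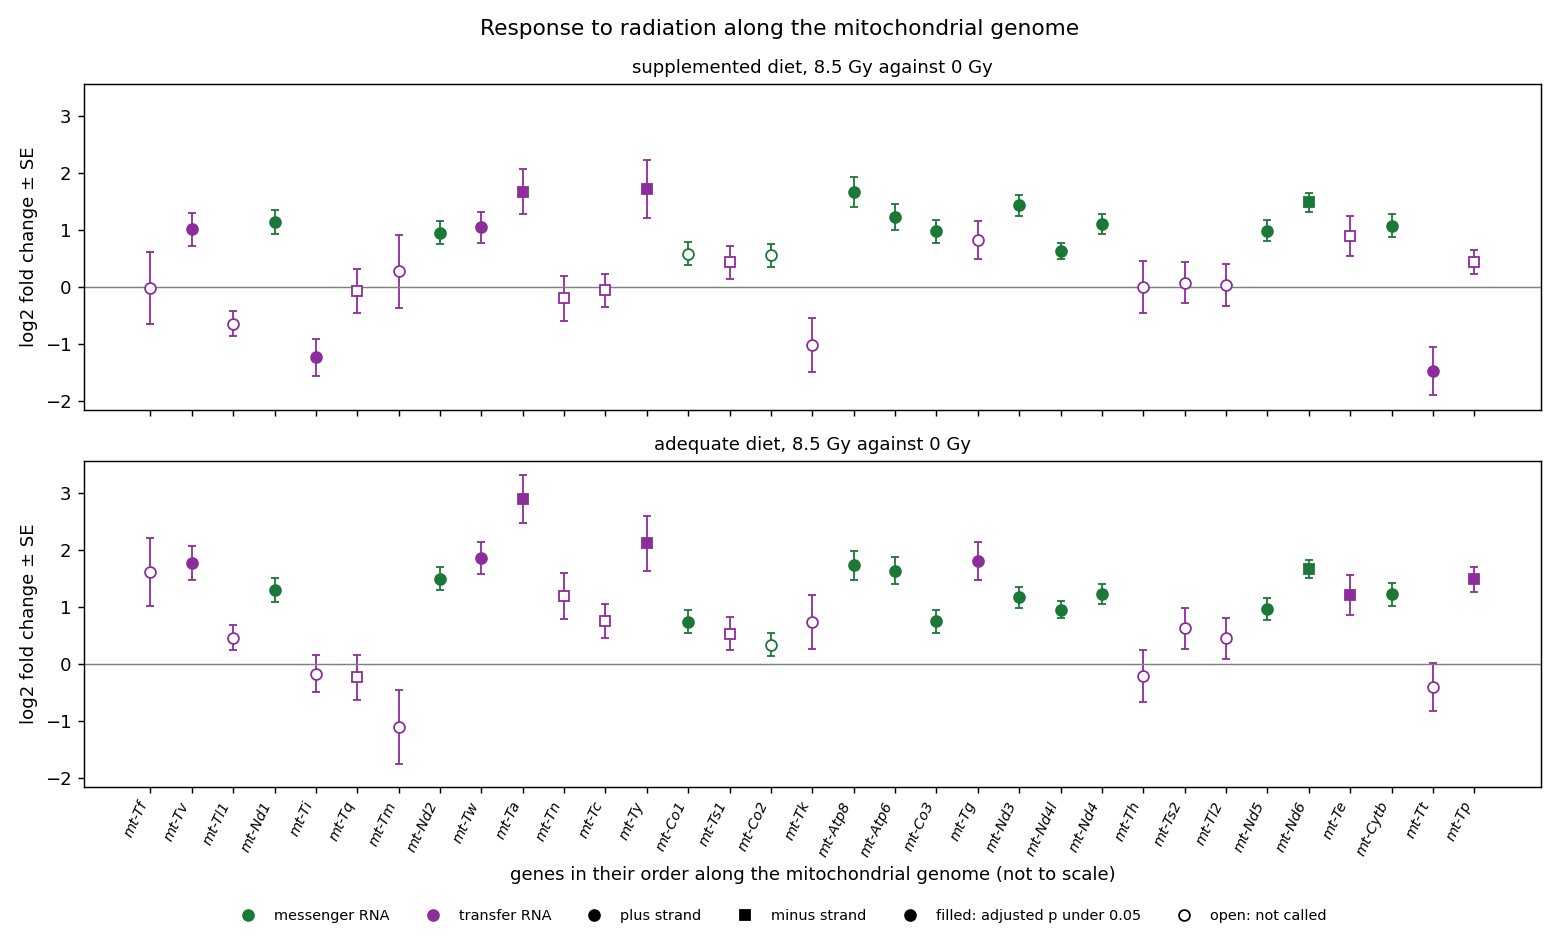
Log2 fold change with SE of 8.5 Gy against 0 Gy for the 33 tested members in genome order, on the supplemented diet (above) and the adequate diet (below), with filled symbols for adjusted p under 0.05 and squares for the minus strand. Messenger RNAs lie between 0.34 and 1.73 on both diets, while transfer RNAs run from -1.46 to 2.89.

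The largest fold changes of all members fell in the cluster between mt-Nd2 and mt-Co1. There, mt-Ta had 28.8, 19.6, 25.6 and 14 CPM in irradiated supplemented libraries, against 3.87, 6.58, 12 and 4.70 CPM in unirradiated ones. With the adequate diet it had 66.4, 36.5, 30.3 and 25.6 CPM after irradiation, against 3.07, 5.30, 8.35 and 3.61 CPM without. The groups were apart on both diets, narrowly on the supplemented one. Its log2 fold change was 1.67 ± 0.39 (adjusted p = 0.0109) on the supplemented diet and 2.89 ± 0.42 (adjusted p = 0.000573) on the adequate diet.

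The neighbours mt-Tw and mt-Ty also rose on both diets. For mt-Tw the log2 fold changes were 1.05 ± 0.27 (adjusted p = 0.0173) and 1.86 ± 0.28 (adjusted p = 0.000751), on the supplemented and the adequate diet. Its irradiated supplemented replicate 4, at 16.8 CPM, lay under the highest unirradiated library at 21.5 CPM, and the supplemented diet call was lost without irradiated replicate 2, unirradiated replicate 1 or the 3 shallow libraries. For mt-Ty, a low member with 1 to 64 counts per library, they were 1.72 ± 0.50 (adjusted p = 0.029) and 2.12 ± 0.49 (adjusted p = 0.00869). Its supplemented groups overlapped at replicate 4 (0.679 CPM irradiated, 0.880 CPM in the highest unirradiated library), and that call was also lost with limma voom, without the 3 shallow libraries, without irradiated supplemented replicate 1 or 2, and without each of the unirradiated supplemented libraries in turn. The asparagine and cysteine transfer RNAs of the same cluster, mt-Tn and mt-Tc, were not called, at -0.20 ± 0.40 and -0.05 ± 0.29 on the supplemented diet and 1.2 ± 0.41 (adjusted p = 0.0644) and 0.76 ± 0.29 (adjusted p = 0.0934) on the adequate diet. DESeq2 called mt-Tn on the adequate diet (log2 1.21), and so did the edgeR test without unirradiated adequate replicate 3 (1.67), irradiated adequate replicate 4 (1.41) or unirradiated supplemented replicate 3 (1.2).

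Of the other transfer RNAs that rose on the adequate diet, mt-Tp had the smallest p of the class. In adequate diet libraries it was at 97.6, 84.6, 79.9 and 74.7 CPM with irradiation, against 20.3, 28.4, 44.6 and 24.9 CPM without, a clear gap (log2 1.49 ± 0.22, adjusted p = 0.000552). With supplementation it was at 52.8, 71.8, 53.0 and 36.8 CPM with irradiation, against 45.3, 32.8, 34.9 and 45 CPM without. There the groups overlapped, and the value of 0.44 ± 0.22 (adjusted p = 0.183) was not called. The glycine transfer RNA mt-Tg averaged 2651 CPM in irradiated and 1499 CPM in unirradiated supplemented libraries (0.82 ± 0.33, adjusted p = 0.103, not called), and 4026 and 1151 CPM in adequate ones (1.81 ± 0.34, adjusted p = 0.00261). The glutamate transfer RNA mt-Te had 0.90 ± 0.35 (adjusted p = 0.101) and 1.21 ± 0.35 (adjusted p = 0.0353). The supplemented diet value reached a call (1.16) without unirradiated supplemented replicate 3. Its adequate diet call was lost with total counts alone, with no filter, without the 3 shallow libraries, and without irradiated adequate replicate 1 or 2 or unirradiated adequate replicate 1, 2 or 4.

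The calls in the other direction came from the supplemented diet. For mt-Tt, the libraries of that diet had 100, 129, 93.4 and 45.1 CPM with irradiation, against 187, 403, 205 and 218 CPM without, with no overlap. The log2 fold change was -1.46 ± 0.42 (adjusted p = 0.0303), and the call was lost with no filter, without the 3 shallow libraries, and without irradiated supplemented replicate 1, 3 or 4 or unirradiated supplemented replicate 2 or 4. On the adequate diet mt-Tt had 397, 454, 298 and 96.5 CPM with irradiation, against 355, 311, 601 and 368 CPM without, and the groups overlapped (-0.40 ± 0.41, adjusted p = 0.573). For mt-Ti the supplemented libraries had 12.9, 18, 22.9 and 15.1 CPM with irradiation, against 31.7, 71.5, 27.6 and 34.3 CPM without (-1.23 ± 0.33, adjusted p = 0.0213). That call was lost without irradiated supplemented replicate 1 or 2, unirradiated supplemented replicate 2 (log2 -0.83) or the 3 shallow libraries. On the adequate diet its value was -0.17 ± 0.33 (adjusted p = 0.787). The gene of mt-Ti overlaps that of mt-Tq on the other strand at their ends. Without strand, only reads confined to the shared bases cannot be told apart. Counts of both genes were whole numbers in every library.

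The remaining transfer RNAs had no call in the edgeR test. Lysine's mt-Tk had a log2 fold change of -1.01 ± 0.47 on the supplemented and 0.74 ± 0.47 on the adequate diet, and the leucine transfer RNA mt-Tl1 had -0.64 ± 0.22 (adjusted p = 0.0626) and 0.47 ± 0.22 (adjusted p = 0.172). For mt-Tl1 on the supplemented diet, DESeq2 (-0.65), total counts alone (-0.83) and the fit without unirradiated supplemented replicate 1 (-0.80) gave calls. The second leucine and both serine transfer RNAs, mt-Tl2, mt-Ts1 and mt-Ts2, lay between 0.04 and 0.44 on the supplemented and between 0.45 and 0.63 on the adequate diet, where mt-Ts1 was called (0.90) without unirradiated replicate 3. The gene of mt-Ts1 overlaps mt-Co1, which has far more counts, on the other strand. Without strand, only reads confined to the shared bases cannot be told apart. Counts of mt-Ts1 were whole numbers in every library. Histidine's mt-Th was at 0.01 ± 0.46 and -0.20 ± 0.46, and glutamine's mt-Tq at -0.07 ± 0.39 and -0.23 ± 0.39. For mt-Tf, the low phenylalanine transfer RNA, the values were -0.01 ± 0.63 and 1.61 ± 0.60, the second called by DESeq2 alone. By strand, the 8 minus-strand transfer RNAs had a median of 0.44 on the supplemented and 1.2 on the adequate diet. Of these, 2 and 4 were called higher and 0 and 0 lower. The 12 plus-strand ones had 0.02 and 0.55, with 2 and 3 called higher and 2 and 0 called lower. Of all tested genes, 8.03% and 7.13% were called higher and 7.21% and 6.58% lower. A difference between the strands was not tested.

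**Figure D4:**
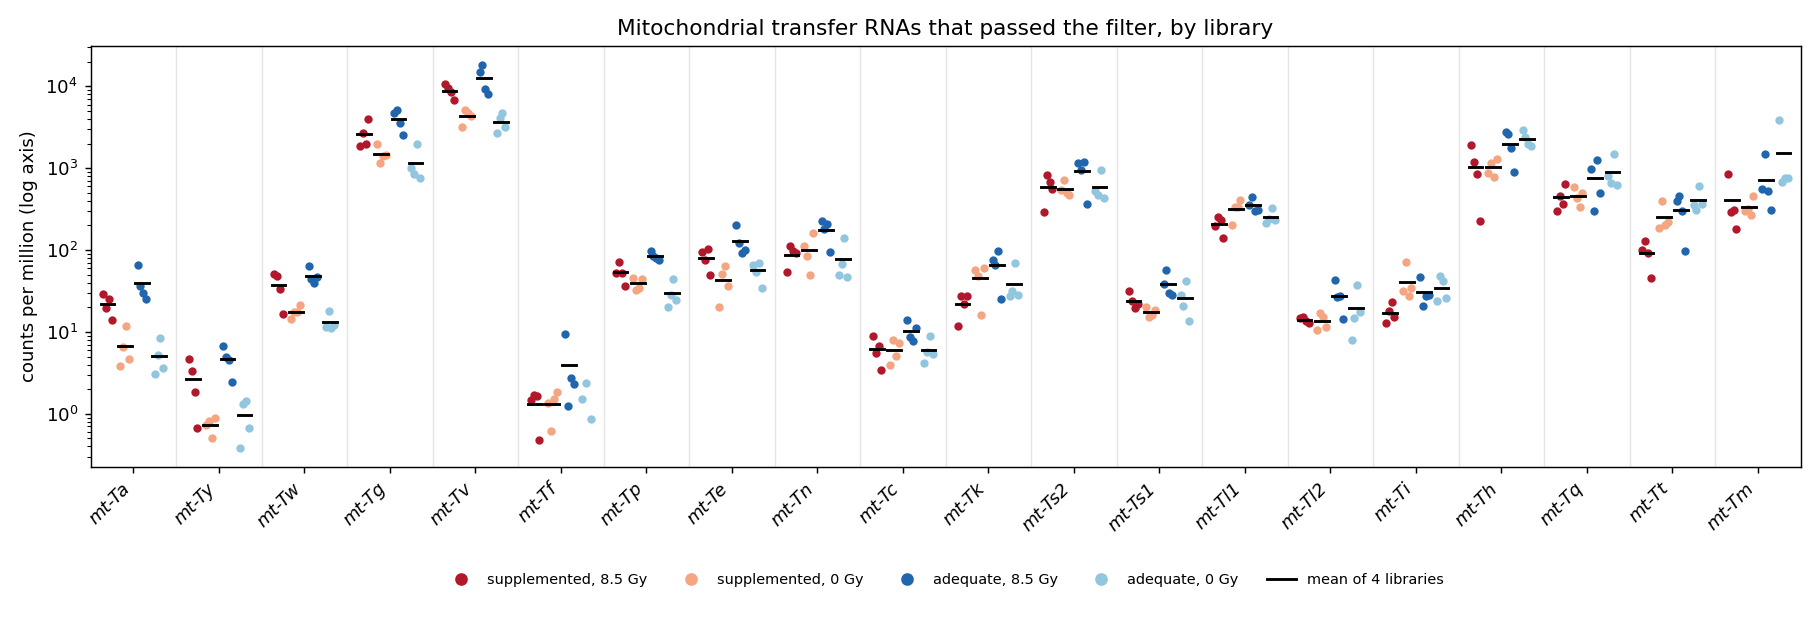
CPM of the 20 tested transfer RNAs in each library on a log axis, ordered by their fold change with radiation on the adequate diet, with points for libraries and black lines for means of 4. The one library at 0, unirradiated adequate replicate 1 for mt-Tf, has no point and its group no line, and mt-Tv reaches 18241 CPM in irradiated adequate replicate 2.

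As a share of all counts, the 22 transfer RNAs held 1.39 ± 0.236% in irradiated and 0.998 ± 0.108% in unirradiated libraries of the supplemented diet, and 2.04 ± 0.565% and 1.16 ± 0.199% on the adequate diet. Per 100 messenger counts there were 50.5 ± 10.5 transfer RNA counts with irradiation and 55.4 ± 8.52 without on the supplemented diet, and 66.6 ± 19.7 and 60 ± 13.2 on the adequate diet, with overlap on both.

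Supplementation without irradiation called none of the members. In that comparison the edgeR test called 0.169% of all tested genes higher and 0.0302% lower. At an unadjusted p under 0.05, 0 messenger RNAs passed, and 0 transfer RNAs were higher and 3 lower, while 6.03% of all genes were higher and 5.91% lower at that level. DESeq2 and limma voom also called 0 members, while they called 226 and 52 of the 16558 tested genes. The groups were apart for 1 messenger RNA (mt-Co2) and 3 transfer RNAs (mt-Tm, mt-Th, mt-Tq), all lower, while 4.71% of all genes were apart in the higher and 4.43% in the lower direction. Among messengers the log2 fold changes ran from -0.37 ± 0.20 for mt-Co2 (adjusted p = 0.485) to 0.21 ± 0.20 for mt-Nd2, with 9 of 13 negative.

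The methionine transfer RNA mt-Tm had the smallest p of the class in that comparison. It was at 298, 321, 270 and 464 CPM in unirradiated supplemented libraries, against 3905, 679, 766 and 762 CPM in unirradiated adequate ones. The supplemented libraries were all below the adequate ones, and adequate replicate 1, the library with the fewest counts and the shortest reads, stood far above its group. The log2 fold change of -2.17 ± 0.67 had an unadjusted p = 0.00547 and an adjusted p = 0.213, and without that library it was -1.12. In irradiated libraries mt-Tm was at 861, 293, 312 and 179 CPM on the supplemented diet, against 552, 1482, 526 and 306 CPM on the adequate diet (-0.80 ± 0.64, adjusted p = 0.964). In each of the 3 groups with a shallow library, that library had the highest mt-Tm of its group. The part of depth and read length in these values was not tested. The effect of radiation on mt-Tm was 0.28 ± 0.64 on the supplemented and -1.09 ± 0.65 on the adequate diet, neither called, and the second was -0.03 without unirradiated adequate replicate 1. The histidine and glutamine transfer RNAs mt-Th and mt-Tq had -1.15 ± 0.46 (adjusted p = 0.332) and -0.95 ± 0.40 (adjusted p = 0.354) with supplementation without irradiation. Reads were shorter in all unirradiated adequate than in the unirradiated supplemented libraries, and the part of this in these differences was not tested.

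After irradiation, supplementation also called none of the members in the edgeR test, as for all tested genes (0.0% in either direction). All 20 tested transfer RNAs had negative log2 fold changes, between -1.76 and -0.41 with a median of -0.82, where 50.1% of all genes were negative. At an unadjusted p under 0.05, 11 of the 20 were lower and 0 higher, and 1 messenger RNA was lower, while 3.13% of all genes were lower and 2.13% higher. Libraries were apart for 2 transfer RNAs (mt-Tl1 and mt-Tp, both lower) and 0 messengers, while 1.70% of all genes were apart in the lower and 1.44% in the higher direction. The largest difference was that of mt-Tt, for which the irradiated supplemented libraries (45.1 to 129 CPM) met the irradiated adequate ones (96.5 to 454 CPM) at adequate replicate 4. Its log2 fold change was -1.76 ± 0.43 (unadjusted p = 0.000893, adjusted p = 0.673), and DESeq2 called it, as the sole member, at -1.77. Of all 16558 tested genes DESeq2 called 11 in that comparison. The messengers had a median of -0.18. The smallest messenger p belonged to mt-Nd4l, with 66.9, 77.6, 81.0 and 61.5 CPM in supplemented against 110, 98.7, 81.0 and 113 CPM in adequate libraries (-0.49 ± 0.14, unadjusted p = 0.00345, adjusted p = 0.861). Supplemented replicate 3 and adequate replicate 3 met at the same value, and limma voom called 0 members and 0 of all tested genes.

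The interaction of diet with radiation (log2 response with supplementation minus log2 response with the adequate diet) called none of the members and 0.0% of all genes in the edgeR test. DESeq2 and limma voom called 0 members, and 2 and 0 of all 16558 tested genes. Unadjusted p-values under 0.05 were found for 0 messengers and for 7 transfer RNAs, all negative, against 2.54% of all genes negative and 1.92% positive. The smallest p-values belonged to mt-Tl1 (-1.10 ± 0.31, unadjusted p = 0.00267, adjusted p = 0.79) and mt-Tp (-1.04 ± 0.31, unadjusted p = 0.00356, adjusted p = 0.796). In mt-Tl1 the supplemented libraries had 199, 257, 232 and 140 CPM with irradiation, against 205, 338, 337 and 408 CPM without. On the adequate diet they were at 358, 440, 299 and 308 CPM with irradiation, against 214, 243, 323 and 235 CPM without. Within each diet the doses overlapped. Among messengers mt-Nd2 had the smallest p (-0.54 ± 0.28, adjusted p = 1). A difference in the transfer RNA response between the diets was therefore not shown at this size and spread.

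Nuclear genes for partners of the 13 messengers were called lower with radiation in part, and most were not called. Of 71 tested nuclear genes for subunits of complexes I, III and IV and the ATP synthase, 0 rose and 27 fell on the supplemented diet and 1 rose and 30 fell on the adequate diet, with median log2 fold changes of -0.27 and -0.32. Among all tested genes 8.03% rose and 7.21% fell on the supplemented diet, and 7.13% rose and 6.58% fell on the adequate diet. These lists were written with earlier results of these data known. In complex I, 12 of 36 fell on the supplemented diet, led by Ndufa9 (-0.60 ± 0.10), Ndufa8 (-0.57 ± 0.11) and Ndufb8 (-0.54 ± 0.10), and 16 fell on the adequate diet, led by Ndufb10 (-0.96 ± 0.12), Ndufc1 (-0.73 ± 0.10) and Ndufa3 (-1.06 ± 0.18). In complex III 4 and 3 of 9 fell, with Uqcrq (-0.51 ± 0.12) first on the supplemented and the iron-sulfur protein gene Uqcrfs1 (-0.72 ± 0.16) on the adequate diet. In complex IV 6 and 5 of 10 fell, with Cox8a (-0.67 ± 0.14) and Cox6a1 (-0.72 ± 0.17) first. The ATP synthase had 5 and 6 of 16 lower, with Atp5g1 (-1.26 ± 0.21) and Atp5k (-1.0 ± 0.14) first, and Atp5g2, which encodes the same ring subunit as Atp5g1, was higher on the adequate diet (0.57 ± 0.17).

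Genes that make and handle mitochondrial RNA were mostly not called, and in each list but that of 11 biogenesis genes 0 to 2 genes were called in a direction, while radiation called 6.58 to 8.03% of all genes in a direction. Counts this small are no result about these lists. Of 17 tested genes of mitochondrial transcription and DNA upkeep, 0 were called on the supplemented diet, and Polg2, the accessory subunit of the mitochondrial DNA polymerase, fell on the adequate diet (-0.62 ± 0.13, adjusted p = 0.00457). Of 22 genes of RNA processing and stability, Tbrg4 (-0.57 ± 0.11 and -0.49 ± 0.11) and Fastk (-0.67 ± 0.14 and -0.61 ± 0.14), of a family of mitochondrial RNA-binding proteins, fell on the supplemented and the adequate diet. On the supplemented diet Trnt1, which adds the CCA end to transfer RNAs, rose by 0.52 ± 0.15 (adjusted p = 0.0304), and 1110008L16Rik rose by 0.76 ± 0.18. Pnpt1, the polynucleotide phosphorylase that degrades mitochondrial RNA, was the gene of these lists called between the diets without irradiation, at a mean of 38.6 CPM in supplemented and 19.3 CPM in adequate libraries (0.98 ± 0.18, adjusted p = 0.0354). That call was lost with total counts alone, without the 3 shallow libraries, and without each unirradiated adequate library, unirradiated supplemented replicate 1, 2 or 3, irradiated supplemented replicate 2 or 3 or irradiated adequate replicate 2, at log2 fold changes of 0.92 to 1.07 over the alternatives, which were chosen for it after seeing the data. Of 22 mitochondrial aminoacyl-transfer RNA synthetases, Cars2 for cysteine fell on the supplemented (-0.56 ± 0.14) and the adequate diet (-0.47 ± 0.14), and Aars2 for alanine fell on the adequate diet (-0.60 ± 0.16). Lars2, the leucine synthetase, held most counts of that list, with 2984 to 9382 CPM in irradiated and 1732 to 9679 CPM in unirradiated supplemented libraries, and 7975 to 16104 and 13468 to 28476 CPM in adequate ones. The rest of the list summed to 379 to 565 CPM in irradiated supplemented and 403 to 463 CPM in unirradiated adequate libraries. Lars2 was not called in any comparison, and whether all of its counts came from its own messenger RNA was not tested. Of 17 transfer RNA modification genes, Trmt2b, a methyltransferase, fell on both diets (-0.37 ± 0.09 and -0.34 ± 0.10). Among 5 genes for starting mitochondrial translation, the initiation factor gene Mtif3 fell on the supplemented diet (-0.46 ± 0.12, adjusted p = 0.0199). Of 11 genes of mitochondrial biogenesis, the coactivator Ppargc1b and the deacetylase Sirt3 fell on both diets (-0.62 ± 0.15 and -0.97 ± 0.16 supplemented, -0.60 ± 0.15 and -0.81 ± 0.17 adequate), Esrra fell on the supplemented diet (-0.59 ± 0.18) and Ppargc1a on the adequate diet (-0.59 ± 0.19). Supplementation after irradiation and the interaction called 0 genes of these lists in the edgeR test.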

How the data were processed

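RNA of the proximal jejunum was sequenced in 16 libraries. Per the labels' protocols, a kit depleted ribosomal RNA, and fragmented RNA entered a small RNA library protocol. Bowtie2 2.2.9, RSEM 1.3.0, edgeR 3.2.4 and the genome build NCBIM37 are named in the submitters' processing notes. The deposited expected counts, estimated per gene by RSEM per the file headers, were rounded and tested. The deposited TPM values, per the file headers, served only as an alternative for ratios. Lengths and effective lengths per gene are also deposited by the authors, and mean read length was taken from them. Symbols came from GENCODE M21 (GRCm38), which named 32897 of 37620 IDs, and no positions are given because the builds differ.

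The filterByExpr step of edgeR 4.0.16 in R 4.3.3 left 16558 genes. Libraries were scaled by TMM and fitted with 1 mean per group over 16 libraries (robust dispersions, common biological coefficient of variation 0.219). Two-sided quasi-likelihood F tests were adjusted by Benjamini-Hochberg over all tested genes, and genes were called at an adjusted p under 0.05. SE is the log2 fold change divided by the root of F. CPM use TMM-scaled totals. Alternatives were DESeq2 1.42.0, limma 3.58.1 voom, other scalings, no filter, an adjusted p under 0.01, omission of the 3 libraries under 4 M counts, and omission of each library in turn. Groups came from the labels. Replicate numbers follow deposition order and pair nothing. Between libraries of a group, the variance was at least 10.4 times that of counting error (chi-square per degree of freedom). Depth was 2.57 to 15.51 M counts. Members, lists and tests were chosen with earlier results of these data known. Named genes were all members, every library being given for the highest in level and the smallest p of each class, and up to 3 called genes per pathway list and comparison. The test was checked on simulated data.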

Additional observations from a re-analysis of the deposited data

Results flagged for a closer look

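In 148 sets of 4 libraries, 7 had a library far from the other 3, where chance gives about 1 in 20 sets (7.4), and all 7 were CPM values of single members. The methionine transfer RNA mt-Tm stood at 3905 CPM in unirradiated adequate replicate 1, against 679 to 766 CPM in the other libraries of that group. Unirradiated supplemented replicate 2 was the highest of its group for the isoleucine transfer RNA mt-Ti (71.5 CPM, others 27.6 to 34.3) and for the threonine transfer RNA mt-Tt (403 CPM, others 187 to 218), which are the members called lower with radiation on that diet. The call of mt-Ti and that of mt-Tt were lost without this library, at log2 fold changes of -0.83 and -1.15. The ATP synthase messenger mt-Atp6 was lowest in irradiated supplemented replicate 4 (1523 CPM, others 2269 to 2391) and highest in unirradiated supplemented replicate 3 (1285 CPM, others 756 to 821), and its groups stayed apart. The tryptophan transfer RNA mt-Tw was at 18 CPM in unirradiated adequate replicate 2 (others 11.2 to 12.2). The lysine transfer RNA mt-Tk was at 69.0 CPM in unirradiated adequate replicate 3 (others 27.2 to 31.4).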

How the results depend on the processing

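The messenger RNA results held best. Over 24 alternatives, 10 to 13 messengers were called with radiation on the supplemented diet and 10 to 12 on the adequate diet, and 6 to 9 transfer RNAs on the adequate diet. Counts of called transfer RNAs on the supplemented diet (6) were 2 without the 3 shallow libraries, 0 at an adjusted p under 0.01, and 2 to 6 when each library was left out. Over all tested genes, radiation calls on that diet (2523) were 1927 without the shallow libraries and 1434 to 3627 when each library was left out. DESeq2 called 1 transfer RNA for supplementation after irradiation, among 11 of all tested genes, where the main count was 0 for both. Of 828 values of called members under alternatives, 783 stayed called, 45 were no longer called and 0 changed sign, and 19 of 2967 values of uncalled members became called. All called member results were radiation effects within a diet. Leaving out a library of the other diet hardly moved such values (mt-Tv on the adequate diet stayed at 1.77), so these fits say little about stability. Another 82 uncalled values changed sign, all from log2 values of at most 0.34 in size. Scaling by total counts alone moved the median of all genes by radiation to -0.20 on the supplemented and -0.16 on the adequate diet, and all 13 messengers stayed positive. Per 100 nuclear protein-coding counts instead of all counts, the log2 ratio of irradiated to unirradiated messenger shares was 0.84 on the supplemented and 0.86 on the adequate diet (main 0.63 and 0.68), and that of transfer RNA shares on the supplemented diet 0.70 (main 0.48). Leaving out replicates of shares and ratios was chosen after seeing the data. No paired analysis was possible because the labels carry no replicate numbers. Low counts limit mt-Ty, mt-Tf, mt-Td and mt-Tr.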
